A study of Mus musculus with 6 samples.

Results

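The genes of the corticosteroid receptors, Nr3c1 and Nr3c2, and 8 genes known to respond to glucocorticoids, Fkbp5, Sgk1, Tsc22d3, Hsd11b1, Zbtb16, Sult1a1, Cdkn1a and Pdk4, were described in the hippocampus of 6 mice. They were taken by name: every isoform whose transcript name, without its final number, was one of these 10 symbols was kept, which gave 60 of 133944 isoforms. Their counts were summed to 10 of 53354 gene symbols. All 10 genes and 32 of the 60 isoforms passed the filter on low counts. The names had been chosen by a proposal that had the genotype comparison of these same mice in view, meaning their counts and fold changes, so the genotype differences of the members are given as a description, and their p-values are not independent evidence.

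Hippocampi came from 3 N-cre mice and from 3 N-cre;Fox1 mice, all aged 3 months and on a C57BL/6 background, and 1 library was sequenced per animal. Both genotypes carried Nes-Cre, a Cre recombinase driven by the Nestin promoter, which is active in the precursors of neurons and glia. The N-cre;Fox1 mice also carried an R26-Rbfox1 allele, in which an Rbfox1 cDNA behind the CAG promoter and a floxed STOP cassette had been placed at Gt(ROSA)26Sor. Rbfox1 is a neuronal RNA-binding protein that regulates splicing and RNA stability. The N-cre mice are the controls for Cre but do not carry the transgene, and the allele was made in 129/sv embryonic stem cells before backcrossing.

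Corticosterone, the main glucocorticoid of the mouse, enters cells and binds to the mineralocorticoid receptor (Nr3c2) and the glucocorticoid receptor (Nr3c1). The mineralocorticoid receptor binds it with the higher affinity and is abundant in hippocampal neurons, whereas the glucocorticoid receptor is filled mainly at the daily peak of the hormone and after stress. Both are held in the cytoplasm by chaperones and, with hormone bound, move to the nucleus, where they act on the same DNA element and induce genes such as Fkbp5, Sgk1, Tsc22d3 and Per1.

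The expected counts of a library summed to between 40463587 and 62141336. Rbfox1, the gene of the transgene, had normalized counts of 15286, 14456 and 14698 in N-cre replicates 1, 2 and 3 and of 15939, 13571 and 15283 in N-cre;Fox1 replicates 1, 2 and 3. The genotypes overlapped, so this sum did not check the labels. Replicate 1 of each genotype stood apart from the other 4 mice in Xist, the RNA of the inactive X chromosome, with 23514 and 22029 normalized counts against 17.3 to 22.1, and in the Y-linked Ddx3y, with 0.859 and 1.97 against 2080.2 to 2829. The labels give no sex, and whatever else these 2 mice share cannot be told apart from it. The choroid plexus gene Ttr reached 111010 normalized counts in N-cre replicate 3 and 251900 in N-cre;Fox1 replicate 2, and 274 to 672 in the other 4 mice. Markers of neurons, astrocytes and of dentate gyrus, CA1, CA2 and CA3 neurons were detected in every mouse.

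Per length of transcript, the mineralocorticoid receptor gene was the more abundant of the receptors in every mouse. The level of Nr3c2 was 63.7, 68.6 and 63.7 TPM in N-cre and 74.6, 77.4 and 76.8 TPM in N-cre;Fox1 replicates 1, 2 and 3. TPM is a level that takes account of library size and transcript length. The level of Nr3c1 was 24.1, 24.6 and 24.6 TPM in N-cre and 21.6, 28.4 and 27.7 TPM in N-cre;Fox1 mice. The lowest value of Nr3c2 was thus above the highest of Nr3c1. Tsc22d3 (mean 89.9 TPM, from 71.5 to 131 over the 6 mice) and Sgk1 (mean 85.5 TPM, from 53.1 to 133) had the highest mean levels, and their ranges overlapped with each other and with that of Nr3c2 (mean 70.8 TPM). Fkbp5 had a mean of 53.1 TPM, from 41.0 to 60.4, all below Nr3c2. Zbtb16 (mean 38.9 TPM, from 34.4 to 47.0) and Hsd11b1 (mean 38.4 TPM, from 32.7 to 41.3) followed, with ranges that overlapped, and both overlapped with Fkbp5. Nr3c1, at a mean of 25.2 TPM, lay below all of these in every mouse. Sult1a1, Cdkn1a and Pdk4, at means of 9.57, 9.24 and 8.42 TPM, lay lowest, with overlapping ranges.

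**Figure D1:**
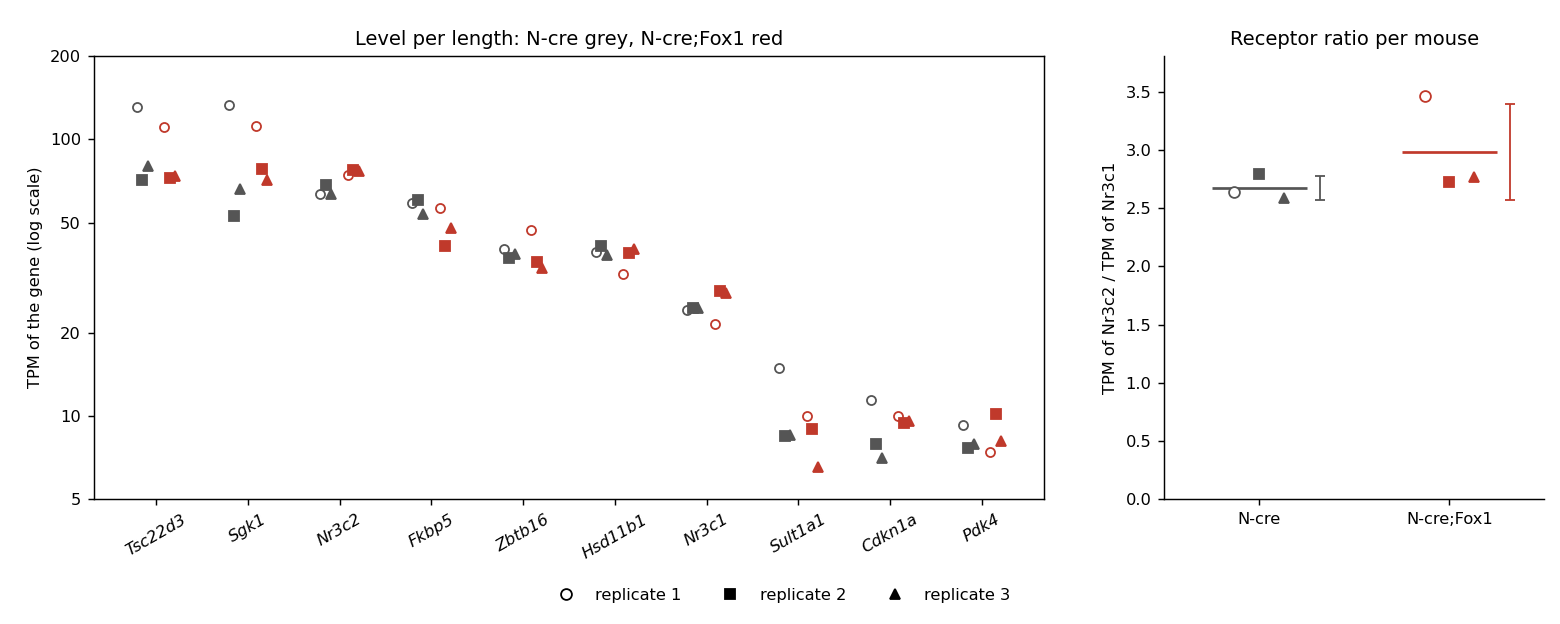
The left panel plots the level of each of the 10 genes in TPM (log scale) in each mouse, N-cre in grey and N-cre;Fox1 in red, and the right panel the ratio of the TPM of Nr3c2 to that of Nr3c1 with the mean and SD of 3 mice per genotype. Nr3c2 lay between 63.7 and 77.4 TPM and Nr3c1 between 21.6 and 28.4 TPM, and the ratio of N-cre;Fox1 replicate 1 was the highest, at 3.46.

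The genotypes were compared with edgeR's quasi-likelihood test on rounded expected counts, with Benjamini-Hochberg adjustment over all 18924 genes or 50556 isoforms tested. An adjusted p under 0.05 was a call. None of the 10 genes was called (0 of 10), beside 0.0264% of all genes tested, and none of the 32 member isoforms was called (0 of 32), beside 0% of all isoforms tested. At an unadjusted p under 0.05, 1 of the 10 genes passed, beside 6.19% of all genes, and 1 of the 32 isoforms, beside 4.78% of all isoforms. DESeq2's Wald test called 1 of the 10 genes, beside 0.313% of the 15955 genes to which it gave an adjusted p, and 0 of the 32 isoforms, beside 0.426% of 50463 isoforms. The gene was Nr3c2 in both tests.

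Nr3c2 (ENSMUSG00000031618.13, mm10 chromosome 8, 76899442 to 77245012, plus strand) had 8234, 8800.4 and 8159 normalized counts in N-cre and 9572, 9823 and 9916 in N-cre;Fox1 replicates 1, 2 and 3. All 3 N-cre;Fox1 mice lay above all 3 N-cre mice. Of the 10 genes this order held for Nr3c2 alone, 1 of 10, beside 6.04% of all genes tested, and 12.1% of all genes had no overlap in either direction. The mean was 8398 ± 351 for the N-cre and 9770.4 ± 178 for the N-cre;Fox1 animals (SD, n = 3 each). On the log2 scale the fold change was 0.22 (SE 0.0386), and edgeR gave an unadjusted p of 0.000182 and an adjusted p of 0.287. The adjusted p was 0.000994 in DESeq2's Wald test and 0.00331 in edgeR without the filter on low counts, and over all alternatives it ranged up to 0.969, reached without N-cre;Fox1 replicate 3. Without both replicate 1 mice the log2 fold change was 0.22 and the adjusted p 0.111. Of the 6 astrocyte markers, 4 had a log2 fold change above 0 and 2 below. Gfap had 24304, 23597 and 22722 normalized counts in N-cre and 34277, 28026 and 29773 in N-cre;Fox1 mice. There was no overlap for Gfap, Aqp4 and Gja1, beside the 12.1% of all genes. There was overlap for Aldoc, Slc1a3 and Aldh1l1, whose log2 fold changes were 0.03, -0.02 and -0.14. The summed counts of the 6 markers ranged from 111610 to 116500 in the N-cre animals and from 117040 to 129080 in the N-cre;Fox1 animals. These sums include Gfap, which had the highest log2 fold change of the 6 (0.38), so they do not show a rise of the other markers. Of the 6 neuron markers, 1 had a log2 fold change above 0 and 5 below, and all overlapped between the genotypes. The numbers above and below 0 were 0 and 5 for CA1, 2 and 3 for CA2, 4 and 1 for CA3, and 4 and 1 for dentate gyrus markers. Of these, only the CA1 marker Wfs1 had no overlap, and it was lower in N-cre;Fox1 mice. The part of all these markers in the difference of Nr3c2 was not tested. In these bulk libraries, more cells of a type and more RNA per cell cannot be told apart.

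Nr3c1 (ENSMUSG00000024431.15, chromosome 18, 39410545 to 39519421, minus strand) had 3389.7, 3388 and 3442 normalized counts in N-cre and 3009.6, 3856 and 3892 in N-cre;Fox1 replicates 1, 2 and 3. N-cre;Fox1 replicate 1 was the lowest of the 6 mice and the other N-cre;Fox1 mice were the highest, which left no gap between the genotypes. Its log2 fold change was 0.07 (SE 0.103), with an adjusted p of 0.964. Without both replicate 1 mice it was 0.19, with an adjusted p of 0.161.

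The ratio of Nr3c2 to Nr3c1 counts was 2.43, 2.598 and 2.37 in N-cre and 3.18, 2.55 and 2.55 in N-cre;Fox1 replicates 1, 2 and 3. Only N-cre;Fox1 replicate 1 lay above the N-cre range, in which the other N-cre;Fox1 mice fell. The mean ratio was 2.76 ± 0.365 for the N-cre;Fox1 and 2.47 ± 0.118 for the N-cre animals (SD, n = 3 each). The difference of the mean log2 ratios was 0.16, and 0.05 without N-cre;Fox1 replicate 1. Per length the ratio was 2.64, 2.79 and 2.59 in N-cre and 3.46, 2.72 and 2.77 in N-cre;Fox1 mice. Thus the higher ratio of N-cre;Fox1 replicate 1 came with the lowest Nr3c1 value of the 6 mice, while its Nr3c2 value was close to those of its genotype.

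Both receptors were read mainly from 2 isoforms each. Nr3c2-203 and Nr3c2-204 have the same coding length, 2940 bases, and differ in their first exon. Nr3c2-203 had 5310.2, 5107 and 5213 normalized counts in N-cre and 5634, 6406 and 6403 in N-cre;Fox1 replicates 1, 2 and 3, with no overlap between the genotypes (log2 fold change 0.24, SE 0.0574, unadjusted p 0.00527 and adjusted p 0.843 in edgeR). Nr3c2-204 had 2909, 3673 and 2918 in N-cre and 3908, 3386 and 3481 in N-cre;Fox1 mice, which overlapped (log2 fold change 0.18, adjusted p 0.990). The share of Nr3c2-203 in the counts of the gene was 62.1% ± 3.59 for the N-cre and 62.9% ± 3.51 for the N-cre;Fox1 animals (SD, n = 3 each). This share differed between the genotypes by less than the SD between mice. Nr3c2-203 has 253 bases that Nr3c2-204 lacks, but 0 bases that are in no other annotated isoform, and its count depends on how RSEM divided the reads.

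Nr3c1-204 took 79.6% ± 7.86 of the Nr3c1 counts for the N-cre and 83.3% ± 0.906 for the N-cre;Fox1 animals (SD, n = 3 each). It had 2926, 2404 and 2812 normalized counts in N-cre and 2521, 3231 and 3192 in N-cre;Fox1 replicates 1, 2 and 3. Nr3c1-203 had 441, 946 and 595 in N-cre and 449.77, 571 and 664 in N-cre;Fox1 mice. The genotypes overlapped for both isoforms, which encode the same 2376 bases. N-cre replicate 2 had the lowest Nr3c1-204 and the highest Nr3c1-203 value. All bases of Nr3c1-204 are also part of other isoforms, so this division rests on the 109 bases particular to Nr3c1-203. Among the isoforms tested, the genotypes did not overlap for 2 of 32 members, Nr3c2-203 and Sgk1-207, beside 11.5% of all isoforms tested.

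**Figure D2:**
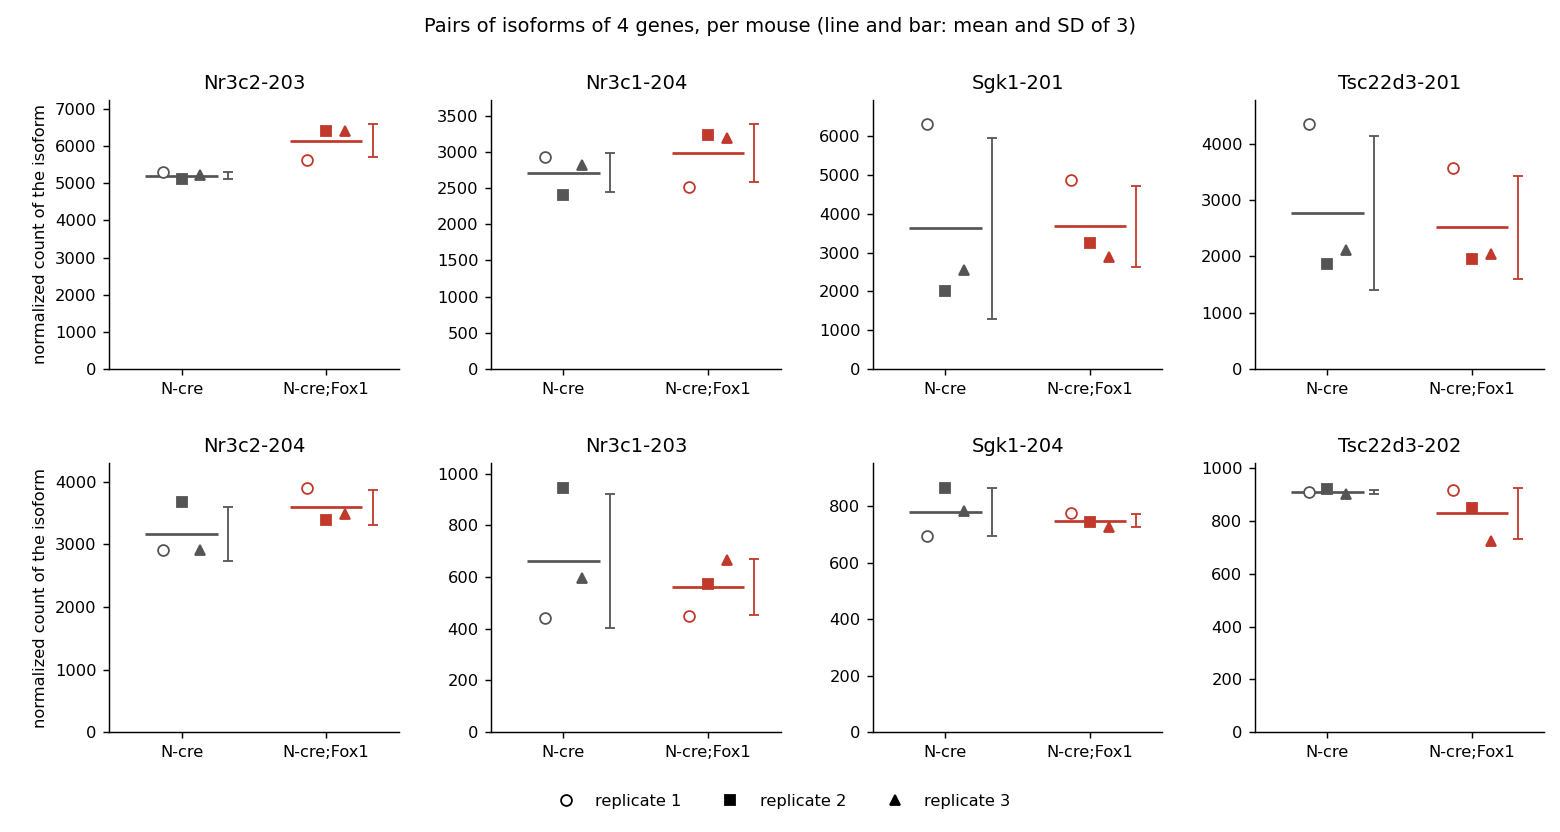
Normalized counts of 2 isoforms each of Nr3c2, Nr3c1, Sgk1 and Tsc22d3 in each mouse (y axes from 0), with the mean and SD of 3 mice per genotype; replicate 1 is drawn as an open circle. Replicate 1 of each genotype stood above the other mice in Sgk1-201 (6307 and 4873) and in Tsc22d3-201 (4345 and 3572), but not in Sgk1-204 (694 and 774).

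Fkbp5 encodes a co-chaperone of the receptor complex, which lowers its affinity for hormone and is itself induced by glucocorticoids. The gene (ENSMUSG00000024222.17, chromosome 17, 28399094 to 28517527, minus strand) had 3965, 4115 and 3861 normalized counts in N-cre and 3932, 2698 and 3084 in N-cre;Fox1 replicates 1, 2 and 3. N-cre;Fox1 replicate 1 lay within the N-cre range, and the other N-cre;Fox1 mice lay below all other animals. The log2 fold change was -0.30 (SE 0.150), with an adjusted p of 0.849. Leaving out N-cre;Fox1 replicate 1 gave -0.46 with an adjusted p of 0.0204, and leaving out replicate 1 of both genotypes gave -0.46 with an adjusted p of 0.0541 (edgeR). A single mouse thus decided on which side of the threshold Fkbp5 fell. This was not particular to Fkbp5, since leaving out that mouse raised the calls over all genes from 5 to 29. The isoform Fkbp5-201, which took 94.1% ± 0.896 of the counts of the gene for the N-cre and 92.9% ± 1.87 for the N-cre;Fox1 animals (SD, n = 3 each), followed the gene.

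The mice with low Fkbp5 also stood apart in immediate early genes, which neuronal activity induces within minutes. Egr4 had 1099, 975 and 938 normalized counts in N-cre and 1189.8, 1607 and 1695 in N-cre;Fox1 replicates 1, 2 and 3. Fosb had 899, 672 and 716 in N-cre and 932, 1309.9 and 1345 in N-cre;Fox1 mice. Of the 9 immediate early genes, only these 2 had no overlap between the genotypes. Together the 9 had summed counts between 26168 and 29660 in the N-cre and between 28269 and 47120 in the N-cre;Fox1 animals. The clock gene Dbp had 3973, 4097 and 3921 in N-cre and 3772, 2874 and 2642 in N-cre;Fox1 mice, without overlap. Of the 10 clock genes, 3 had no overlap, all lower in N-cre;Fox1 mice, beside the 12.1% of all genes. Their log2 fold changes were above 0 in 3 and below 0 in 7. The part of both sets of genes in the values of Fkbp5 was not tested.

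Sgk1, a kinase that acts on ion channels and transporters, showed the widest spread among the 10 genes, with a highest value 2.44 times the lowest. The gene (ENSMUSG00000019970.15, chromosome 10, 21882184 to 21999903, plus strand) had 7308, 2996 and 3624 normalized counts in N-cre and 6030.1, 4231 and 3820.2 in N-cre;Fox1 replicates 1, 2 and 3. Replicate 1 was the highest in both genotypes, at 2.21 times the mean of the others in N-cre and 1.498 times in N-cre;Fox1 mice. Between the genotypes the log2 fold change was 0.01 (SE 0.442), with an adjusted p of 0.999. Without both replicate 1 mice it was 0.29, with an adjusted p of 0.651, and the sign of this change turned with the mouse left out.

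Most of the excess of Sgk1 in the replicate 1 mice was assigned to its most abundant isoform. Sgk1-201, which starts at 21994666, had 6307, 1998 and 2559.9 normalized counts in N-cre and 4873, 3255 and 2888 in N-cre;Fox1 replicates 1, 2 and 3. Sgk1-204, which starts 112.5 kb further upstream and encodes a longer protein, had 694, 865 and 783 in N-cre and 774, 744 and 727 in N-cre;Fox1 mice. For Sgk1-201 the replicate 1 mice were the highest of all 6, whereas N-cre replicate 1 was the lowest of all for Sgk1-204. The share of Sgk1-201 in the gene was 74.5% ± 10.3 for the N-cre and 77.8% ± 2.67 for the N-cre;Fox1 animals (SD, n = 3 each). Sgk1-201 has 170 and Sgk1-204 810 bases that the other lacks, but only 22 bases of Sgk1-201 and 313 of Sgk1-204 are in no other annotated isoform of the gene, so the count of Sgk1-201 depends on how RSEM divided the reads. The retained-intron isoform Sgk1-207 had 18.5, 2.57 and 11.3 in N-cre and 20.9, 26.2 and 19.6 in N-cre;Fox1 mice, without overlap (log2 fold change 0.99, SE 0.661, adjusted p 0.990), and made up 0.217% and 0.494% of the gene on average.

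Because the counts of isoforms from these start sites differed in their order of mice, the 250 bases before the start of Sgk1-201, of the neighbouring Sgk1-202 and of Sgk1-204 are shown, 5′ to 3′ on the plus strand, from RefSeq's annotation of GRCm38.p6. The windows are chr10:21994416-21994665, chr10:21993640-21993889 and chr10:21881934-21882183. They were searched on both strands for the arms of the receptors' element, AGAACA or its reverse complement TGTTCT, and for the looser pair GNACA, any 3 bases, TGTNC, which can overlap with the arms. Capitals mark the matches.
Sgk1-201: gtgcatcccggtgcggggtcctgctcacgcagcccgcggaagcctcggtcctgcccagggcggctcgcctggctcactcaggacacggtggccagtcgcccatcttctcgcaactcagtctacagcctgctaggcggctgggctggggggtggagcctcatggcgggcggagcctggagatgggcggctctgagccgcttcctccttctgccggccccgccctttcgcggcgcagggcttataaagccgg
Sgk1-202: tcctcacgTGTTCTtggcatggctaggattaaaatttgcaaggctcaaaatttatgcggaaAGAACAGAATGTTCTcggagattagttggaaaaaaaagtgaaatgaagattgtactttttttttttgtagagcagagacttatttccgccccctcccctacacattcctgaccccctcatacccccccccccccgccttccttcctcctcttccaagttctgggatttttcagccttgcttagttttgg
Sgk1-204: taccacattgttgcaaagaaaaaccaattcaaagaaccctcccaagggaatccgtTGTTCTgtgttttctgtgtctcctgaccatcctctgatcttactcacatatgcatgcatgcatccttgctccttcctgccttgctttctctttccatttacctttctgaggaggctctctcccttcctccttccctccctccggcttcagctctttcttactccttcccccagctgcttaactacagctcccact
The window of Sgk1-202 held 3 arms, and 2 of them formed the full element with 3 bases between them. These 2 arms began at -189 and -180 from that start site. The looser pair within the element began 188 bases before that start site and 964 bases before the start of Sgk1-201. The window of Sgk1-201 itself held no arm and that of Sgk1-204 held 1. Sgk1-202, with 2.93% of the counts of the gene on average over the 6 mice, did not have the order of Sgk1-201. It had 179, 47.2 and 182 normalized counts in N-cre and 179, 155 and 73.0 in N-cre;Fox1 replicates 1, 2 and 3.

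RefSeq windows were found for 8 of the 10 genes, all but Nr3c1 and Zbtb16. At least 1 arm was found in 5 of their 16 windows, beside 16.1% of all 32851 windows, and the looser pair in 1 of the 16, beside 0.387% of all. The windows with arms belonged to Sgk1, Sult1a1 and Tsc22d3. Sgk1 had more windows than any other of these genes, so counts of windows are not counts of genes. Among 25 other genes known to be induced by glucocorticoids that had a window, the looser pair was found before Mt1, Fam107a and Txnip. It was in 4 of 33 windows, but those of Fam107a, for the start sites 8309779 and 8309777, held the same match. An arm was found in 3 of the 33, or 9.09%, beside the 16.1% of all windows. The looser pair is shown in capitals with 8 bases on each side, on the strand of the gene, beside that of Sgk1.
Sgk1, chr10:21993694-21993722: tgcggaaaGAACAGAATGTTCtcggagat
Mt1, chr8:94178987-94179015: cactatagGGACATGATGTTCcacacgtc
Fam107a, chr14:8309877-8309905: ggtggcttGGACATGGTGTTCtgagtctc
Txnip, chr3:96557777-96557805: cgctaggaGCACACCGTGTCCacgcgccc
In all of these genes the replicate 1 mice had the highest counts of the 6. The same order held in 17 of the 27 other tested glucocorticoid-induced genes, including Mt1, Fam107a and Txnip, beside 8.01% of all genes tested. Tsc22d3 and Cdkn1a, whose windows held no looser pair, also had it, so the order was not particular to genes with the pair. Mt1, a metallothionein, had 7290.3, 5949 and 5915 in N-cre and 8769.6, 5772 and 6021 in N-cre;Fox1 replicates 1, 2 and 3. Fam107a, an actin-associated protein, had 22147, 16261 and 16726 in N-cre and 25041, 18629 and 18373 in N-cre;Fox1 mice. Txnip, an inhibitor of thioredoxin, had 2135, 1378 and 1576 in N-cre and 1967, 1851 and 1344 in N-cre;Fox1 mice, where replicate 2 came close to replicate 1. A match of letters is a description of the window and not evidence of binding.

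Tsc22d3, which encodes the anti-inflammatory protein GILZ, had the same order of mice. The gene (ENSMUSG00000031431.13, chromosome X, 140539528 to 140600659, minus strand) had 5615, 2994 and 3308 normalized counts in N-cre and 4766, 3008 and 3062 in N-cre;Fox1 replicates 1, 2 and 3. Replicate 1 had 1.78 times the mean of the others in N-cre and 1.57 times in N-cre;Fox1 mice, and the other 4 mice differed little. The log2 fold change between the genotypes was -0.14 (SE 0.358), with an adjusted p of 0.984, and -0.05 with an adjusted p of 0.899 without both replicate 1 mice. Most of the excess was assigned to Tsc22d3-201, which encodes the protein and had 4345, 1860.3 and 2115 in N-cre and 3572, 1947 and 2037 in N-cre;Fox1 mice. Tsc22d3-202, a processed transcript without a coding sequence, had 908, 919.84 and 903 in N-cre and 916, 847 and 723 in N-cre;Fox1 mice. The low isoform Tsc22d3-205 also had its highest counts in the replicate 1 mice, with 126, 65.2 and 63.0 in N-cre and 105, 59.1 and 93.4 in N-cre;Fox1 mice. Tsc22d3-202 was nearly level over the N-cre mice, while Tsc22d3-201 was over 2 times as high in N-cre replicate 1 as in the others. Since 1 base of Tsc22d3-201 is in no other isoform, its count too depends on how RSEM divided the reads.

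Sult1a1, a sulfotransferase, and Cdkn1a, the cell-cycle inhibitor p21, were low genes with the same order. Sult1a1 had 439, 249.96 and 249 normalized counts in N-cre and 299, 256 and 192 in N-cre;Fox1 replicates 1, 2 and 3 (log2 fold change -0.34, SE 0.276, adjusted p 0.925). Cdkn1a had 493, 332 and 306 in N-cre and 429.8, 396 and 411 in N-cre;Fox1 mice (log2 fold change 0.12, SE 0.168, adjusted p 0.964). The excess of replicate 1 was clear in N-cre, at 1.76 times the others for Sult1a1 and 1.55 times for Cdkn1a, and smaller in N-cre;Fox1 mice, at 1.33 and 1.07 times. Sult1a1-203 and Sult1a1-202 took 75.3% and 23.2% of the Sult1a1 counts on average over the 6 mice. Cdkn1a-201 took 97.9% of the Cdkn1a counts, and the genotypes overlapped for each of these isoforms.

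Zbtb16 encodes the transcription factor PLZF. It had 3963, 3686 and 3726 normalized counts in N-cre and 4546, 3512 and 3391 in N-cre;Fox1 replicates 1, 2 and 3 (log2 fold change 0.01, SE 0.125, adjusted p 0.997). Here replicate 1 exceeded the others by more in N-cre;Fox1 mice, 1.32 times against 1.07 times in N-cre. Its isoforms Zbtb16-201 and Zbtb16-202, which encode the same 2019 bases, took 82.4% and 17.6% of the counts on average over the 6 mice, and both overlapped between the genotypes.

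Hsd11b1, which regenerates active glucocorticoid from its inactive form inside cells, and Pdk4, an inhibitor of pyruvate dehydrogenase, did not have this order. Hsd11b1 had 1308, 1361 and 1246 normalized counts in N-cre and 1078, 1239.8 and 1313 in N-cre;Fox1 replicates 1, 2 and 3 (log2 fold change -0.11, SE 0.0734, adjusted p 0.891). Pdk4 had 736, 602 and 609.7 in N-cre and 586, 791 and 640.14 in N-cre;Fox1 mice (log2 fold change 0.05, SE 0.124, adjusted p 0.983). In N-cre;Fox1 mice replicate 1 was the lowest for both genes. The isoforms Hsd11b1-201 and Hsd11b1-205, which share a coding length of 876 bases, took 42.5% and 55.0% of the Hsd11b1 counts on average over the 6 mice.

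**Figure D3:**
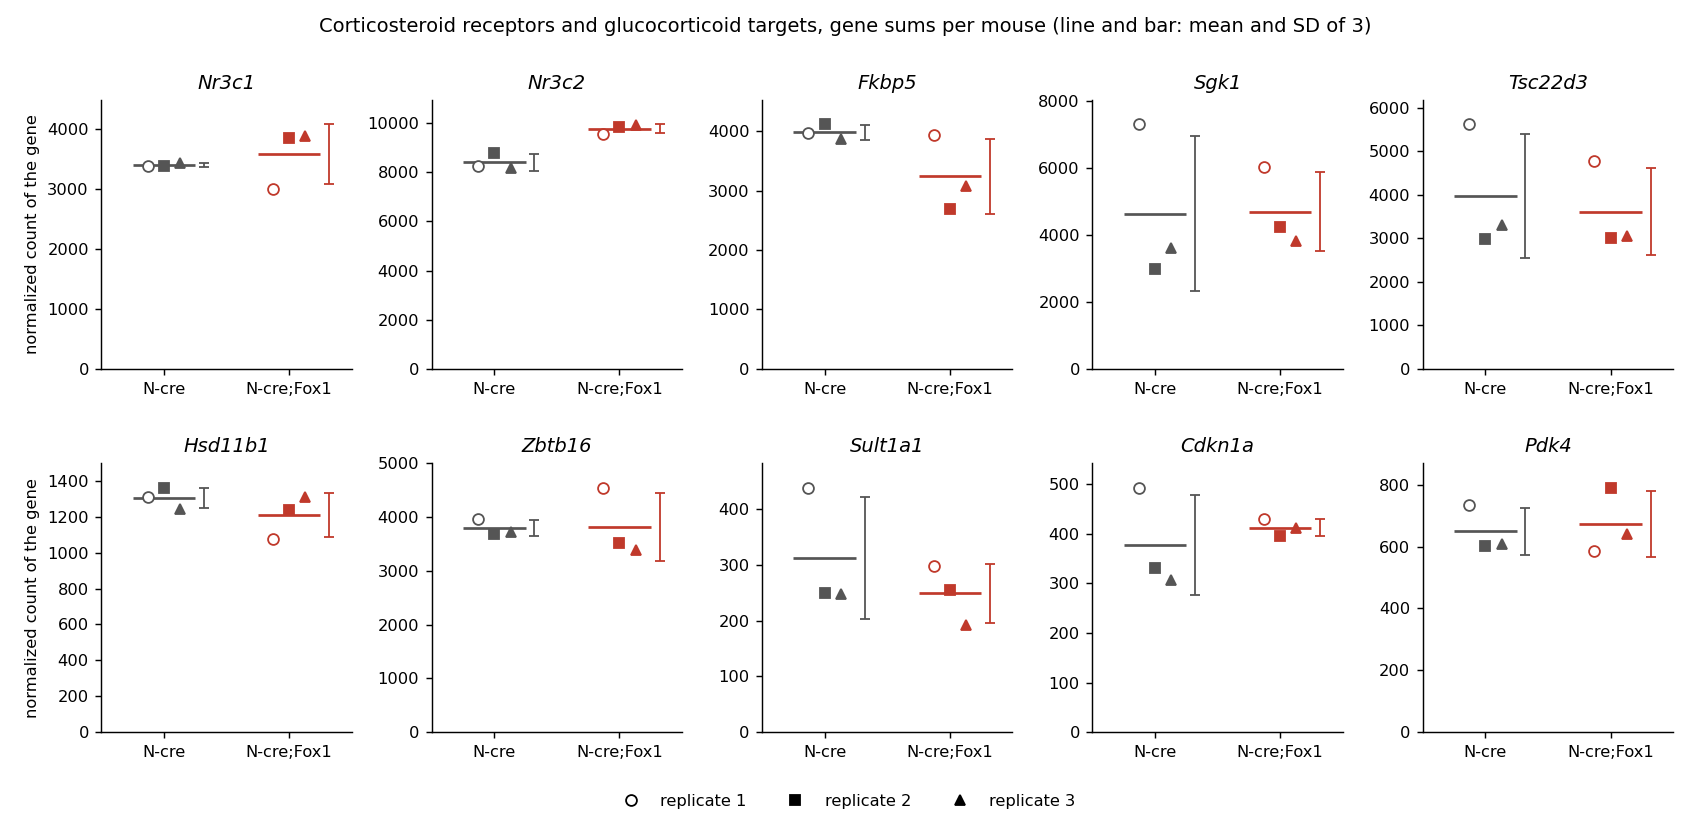
Normalized counts of the 10 genes in each mouse (y axes from 0), with the mean and SD of 3 mice per genotype; replicate 1 is drawn as an open circle. Only Nr3c2 had no overlap between the genotypes (N-cre up to 8800.4, N-cre;Fox1 from 9572), and in Sgk1, Tsc22d3, Zbtb16, Sult1a1 and Cdkn1a both replicate 1 mice lay above the other 4.

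Over the 8 targets, the level of a mouse was summarised as the mean log2 deviation of its genes from their means over the 6 mice. It was 0.35, -0.13 and -0.12 in N-cre and 0.14, -0.09 and -0.15 in N-cre;Fox1 replicates 1, 2 and 3. The replicate 1 mice were the highest, and the genotypes overlapped, with a mean difference of -0.07 that changed to 0.09 when N-cre replicate 1 was left out and to 0.0048 without both replicate 1 mice. Both replicate 1 mice lay above the other 4 in 5 of the 10 members, beside 8.01% of all genes tested. The same order held in 17 of the 27 other tested glucocorticoid-induced genes, and the opposite order in 1. These other genes had mean deviations of 0.23, -0.15 and -0.06 in N-cre and 0.15, -0.02 and -0.15 in N-cre;Fox1 mice. Fkbp5, Hsd11b1 and Pdk4 among the targets did not have this order, nor did Per1 among the other genes. Neither receptor gene had it, since Nr3c2 was level within each genotype and Nr3c1 was lowest in N-cre;Fox1 replicate 1. Sex, hormone level and every other trait shared by these 2 mice cannot be told apart here, and no hormone was measured in these files.

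**Figure D4:**
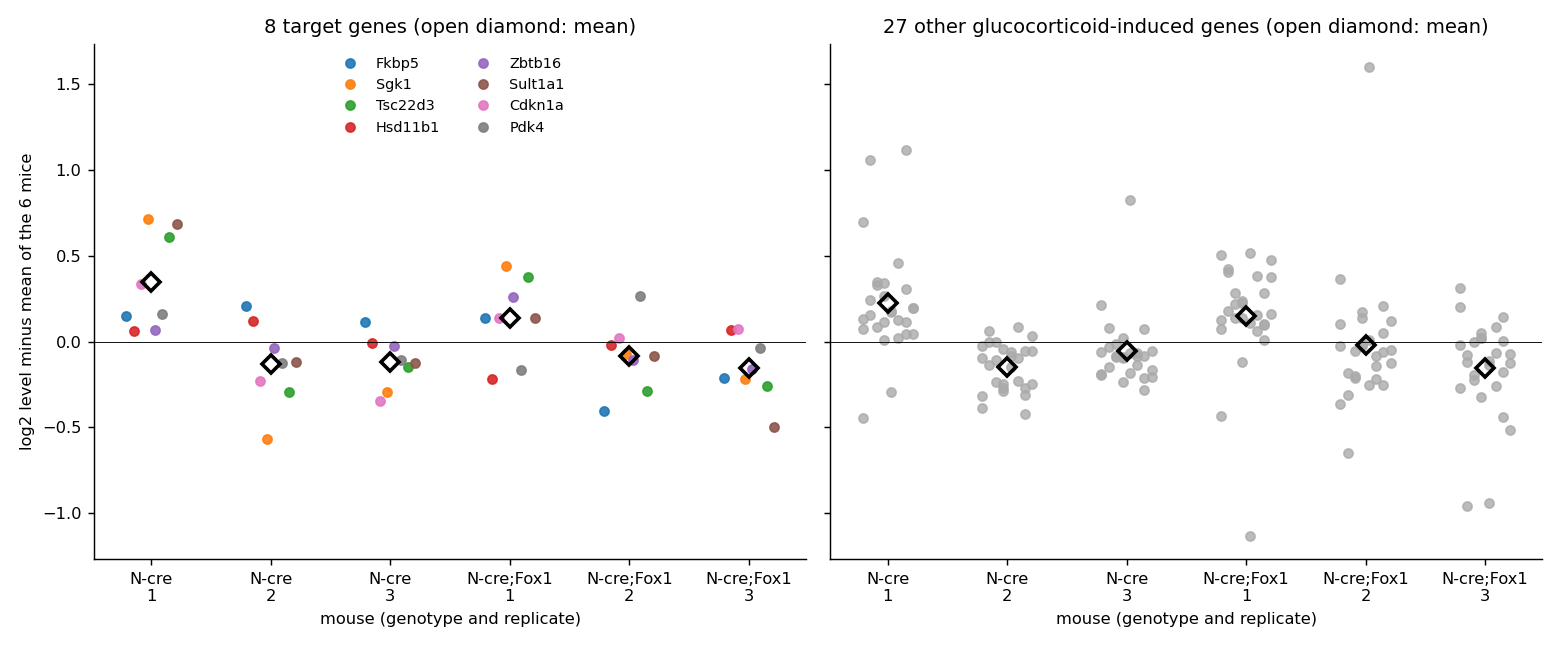
Each point is the log2 level of a gene in a mouse minus its mean over the 6 mice, for the 8 targets (left, coloured by gene) and for 27 other glucocorticoid-induced genes (right); open diamonds are the means over genes. The means were highest in the replicate 1 mice, at 0.35 and 0.14 for the 8 targets and 0.23 and 0.15 for the others.

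The genes whose pattern over the 6 mice was most like the mean of the 8 targets, among 13730 genes whose normalized counts averaged 100 or more, were Zhx3, Polr3e, Grm2, Pnpla2 and Notch4, with Pearson's r from 0.975 to 0.992. Polr3e, a subunit of RNA polymerase III, for example, had 2959.6, 2088 and 2152 in N-cre and 2625, 2214 and 2173 in N-cre;Fox1 replicates 1, 2 and 3. Those most like the log2 ratio of Nr3c2 to Nr3c1 were Gart, Iyd, Epha4, Rint1 and Ndufc2, with r from 0.975 to 0.993. With 6 mice from 1 set of libraries and so many genes, such values are a description only.

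In the wider pathway, genes were listed by role and compared between the genotypes. Beside the counts below, 6.19% of all genes tested had an unadjusted p under 0.05 in either direction. Among the 27 other glucocorticoid-induced genes, 3 were higher in N-cre;Fox1 mice at an unadjusted p under 0.05 and 0 lower, with a median log2 fold change of 0.01 and 0 calls. They were Gadd45g (0.22), Per1 (0.28) and Nedd9 (0.20). Per1, a clock gene that also responds to glucocorticoids, had 7043, 5369.8 and 5837 normalized counts in N-cre and 7305, 7192 and 7681 in N-cre;Fox1 replicates 1, 2 and 3. All its N-cre;Fox1 values lay above the N-cre values, and its adjusted p was 0.799. Lcn2 was the listed gene that failed the filter.

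Of the 12 chaperones of the receptors, 5 were higher at an unadjusted p under 0.05 and 0 lower, with a median log2 fold change of 0.05 and 0 calls. In 6 the N-cre;Fox1 mice were all above and in 1 all below the N-cre mice. Of all genes tested, 6.04% had them all above, and 12.1% had no overlap in either direction. The Hsp70 protein Hspa8 (0.12), the immunophilin Fkbp4 (0.13), the adaptor Stip1 (0.11) and Hsp90aa1 (0.11) had the smallest p-values. Fkbp4, which opposes Fkbp5 in the receptor complex, had 5225, 5138 and 5252 in N-cre and 5342, 6069.5 and 5703 in N-cre;Fox1 replicates 1, 2 and 3. Its N-cre;Fox1 replicate 1 was close to the N-cre mice, as for Fkbp5.

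Of the 12 cofactors, Ep300, a histone acetyltransferase, was higher at an unadjusted p under 0.05 (log2 fold change 0.13, adjusted p 0.726), and the median was 0.04. The 6 tested genes of steroid enzymes and transport had 0 such genes. Hsd11b2, which inactivates corticosterone in kidney, and Serpina6, which encodes its carrier in blood, had at most 2.37 normalized counts in any mouse. Of the 7 tested genes of the corticotropin-releasing hormone axis, Crhr1, its main receptor in brain, was lower at an unadjusted p under 0.05 (log2 fold change -0.19, adjusted p 0.799).

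Of the 10 clock genes, 1 was higher (Arntl, 0.18) and 3 lower (Per3, -0.27; Nr1d2, -0.10; Bhlhe41, -0.13) at an unadjusted p under 0.05, with 0 calls. Per3 had 3349, 3269.5 and 3339 in N-cre and 2926, 2715 and 2600.1 in N-cre;Fox1 replicates 1, 2 and 3, without overlap (adjusted p 0.216). Corticosterone and its targets vary with the time of day, which the labels do not give, and its part in the values of the members was not tested. All 9 immediate early genes had a log2 fold change above 0, with a median of 0.54, and 2 passed an unadjusted p under 0.05 (Egr4, 0.58 and Fosb, 0.65). Of all genes tested the median log2 fold change was -2.58e-05, with 680 higher and 492 lower at an unadjusted p under 0.05.

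**Figure D5:**
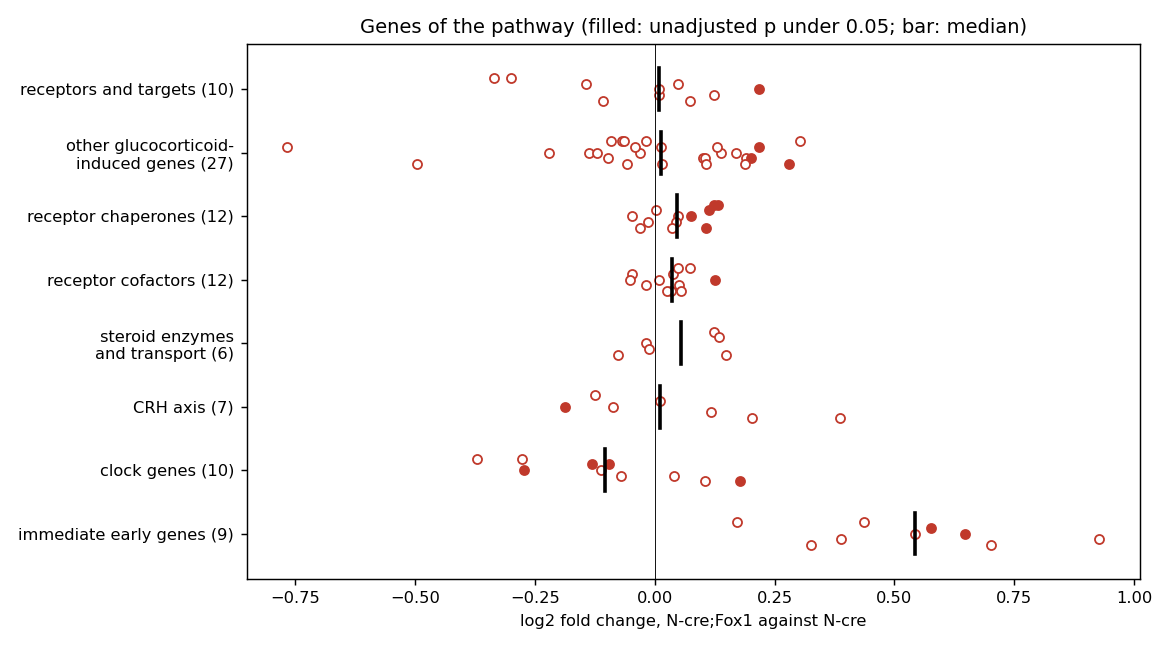
The x axis is the log2 fold change of N-cre;Fox1 against N-cre mice for each tested gene (circles; filled where the unadjusted p was under 0.05), by list, with the number of genes in brackets and the median as a bar. The medians were 0.01 for the other glucocorticoid-induced genes, 0.05 for the chaperones, -0.10 for the clock genes and 0.54 for the immediate early genes.

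Rbfox proteins bind TGCATG in RNA. In the most abundant isoform of each gene this motif was found 3 times in Nr3c1, 2 times each in Nr3c2 and Tsc22d3, once in Sgk1 and Pdk4, and in none of the other 5. The share of 5 of 10 genes compares with 51.2% of 18904 tested genes with a sequence. Thus about the same share of these spliced isoforms held the motif as of those of all genes. Introns were not searched, and the share does not take account of transcript length.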

How the data were processed

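Total RNA of 6 hippocampi was sequenced as stranded, paired reads. After adapter removal (Cutadapt 1.18), alignment to mm10 (STAR 2.5.2b) and quantification (RSEM 1.3.0), the authors deposited expected counts per isoform, which are neither normalized nor whole, since RSEM divides reads between isoforms. Here isoforms were summed by gene symbol, and counts were then rounded for the tests and for the ratio of the receptor counts. Normalized counts, isoform shares and TPM came from counts that were not rounded. TPM was computed with isoform lengths of a later GENCODE release. Low counts were removed with filterByExpr (minimum count 10, minimum total 15). The genotypes were compared with edgeR 4.0.16 (quasi-likelihood, robust, TMM) in R 4.3.3, with limma 3.58.1 and DESeq2 1.42.0 as alternatives. The script was tested on simulated data. Normalized counts are scaled to the mean library size. The levels of a mouse used log2 with a pseudocount of 2. The contributions of depth and of spread between mice to the errors were not separated.

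The members and lists were chosen with earlier results of these data known. Isoforms with at least 10% of the counts of a gene, tested isoforms without overlap, and up to 4 genes per list by unadjusted p are named, and the 5 genes most like each pattern. Ttr, Ddx3y, Mt1, Fam107a, Txnip, Hsd11b2, Serpina6, Lcn2, Aldoc, Slc1a3, Dbp and Tsc22d3-205 were named after their values were seen.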

Additional observations from a re-analysis of the deposited data

How the results depend on the processing

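Of 17 alternatives, 8 left the number of genes called within 1.5 times the 5 calls of the reported fit. It was 45 without the filter on low counts, 50 with DESeq2's Wald test, 3 at an adjusted p under 0.01, 2 to 29 with a mouse left out (29 without N-cre;Fox1 replicate 1), and, chosen after seeing the data, 11 with a term for Xist and 65 without both replicate 1 mice. The number of isoforms called, 0 in the reported fit, was 10 without the filter, 6 with at least 10 counts in every mouse, 215 with DESeq2's Wald test and 1 with counts that were not rounded. Of the member genes, 1 was called without the filter and with DESeq2's Wald test, Nr3c2, and 0 to 1 with a mouse left out, Fkbp5 without N-cre;Fox1 replicate 1. Member isoforms had 0 calls under all 17 alternatives. The differences between genotypes in the log2 receptor ratio and in the mean target level moved by less than the pooled SD of the mice (0.139 and 0.222) under all 11 alternatives each. They ranged from 0.04 to 0.21 and from -0.15 to 0.09, so the latter changed sign. Without N-cre;Fox1 replicate 1 the ratio difference fell to 0.05. The SD of the log2 ratio was 0.185 in N-cre;Fox1 and 0.0684 in N-cre mice, so staying within the pooled SD does not show stability. The causes were not tested.

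The sign of a log2 fold change turned in 16 of 160 cases for member genes and in 24 of 287 for named isoforms, in each case without a call. With a mouse left out, the log2 fold change lay between -0.22 and 0.51 for Sgk1, -0.13 and 0.087 for Zbtb16, -0.39 and 0.20 for Tsc22d3, -0.48 and 0.0016 for Sult1a1, -0.00021 and 0.37 for Cdkn1a, and -0.084 and 0.16 for Pdk4. For isoforms it lay between -0.046 and 0.087 for Hsd11b1-205, -0.085 and 0.15 for Pdk4-201, -0.27 and 0.69 for Sgk1-201, -0.14 and 0.020 for Sgk1-204, -0.46 and 0.12 for Nr3c1-203, -0.46 and 0.039 for Sult1a1-203, -0.48 and 0.34 for Tsc22d3-201, -0.13 and 0.066 for Zbtb16-201, and -0.20 and 0.16 for Zbtb16-202. Upper quartile normalization gave -2.2e-05 for Sgk1, -0.0014 for Zbtb16 and -0.00022 for Hsd11b1-205, limma-voom -0.0073 for Zbtb16, and the term for Xist -0.00033 for Zbtb16. Without both replicate 1 mice the value was -0.10 for Zbtb16, 0.00066 for Tsc22d3-201 and -0.19 for Zbtb16-202. For Zbtb16-201 it was 0.0041 without the filter and 0.00056 with at least 10 counts in every mouse.

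Deviations from the genotype means correlated at 0.378 for replicates 1, -0.0953 for replicates 2 and -0.21 for replicates 3. Not every mouse correlated best with its own number. With 3 mice per genotype, centred on their means, these values cannot decide whether the replicate numbers pair the mice. With the replicate block, 5 genes, 0 isoforms and 0 members were called. The block gave the same mean differences for the receptor ratio (0.16) and the target level (-0.07), and -0.00074 for Zbtb16.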
